A study of Homo sapiens with 6 samples.

Results

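The 8 genes described here, HMGCS1, MVK, MVD, IDI1, FDPS, FDFT1, SQLE and INSIG1, were chosen by name as a cholesterol synthesis set, and each matched 1 of the 57150 rows of the gene table. The set had been named for cholesterol synthesis and LDL uptake, but 7 of its 8 members are synthesis enzymes and the other, INSIG1, is a sensor protein of the feedback loop, so that no gene of lipoprotein uptake is among them. The mRNAs were measured by RNA-seq in K562, a human erythroleukemia cell line, in 3 libraries from cells given siRNAs for the combined knockdown of αCP1/2 and 3 libraries from cells given control siRNAs, with more than 1 siRNA used in each group. αCP1 and αCP2, encoded by PCBP1 and PCBP2, are KH-domain proteins that bind C-rich RNA, and the study examined how their loss affects alternative splicing, above all of cassette exons. The gene-level values of the same libraries, read here, do not measure splicing. All cells belonged to the same line and were harvested 72 h after transfection, so both groups are transient transfections. The table holds a single value per gene for each group, in columns labelled KD and CTRL, and therefore no difference given here has a replicate error or a p-value.

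Cholesterol is built from acetyl-CoA through the mevalonate pathway. After a thiolase has joined acetyl-CoA units, HMG-CoA synthase forms HMG-CoA, which is reduced to mevalonate. The mevalonate kinases and decarboxylase form an activated isoprene unit, and these units are joined to farnesyl diphosphate, squalene and at last a sterol ring. When sterols are scarce in the endoplasmic reticulum, the SREBP transcription factors are escorted by SCAP and cut by site proteases. The SREBPs then raise the mRNAs of most enzymes of the route, often beside the CCAAT-binding factor NF-Y. INSIG proteins hold the SCAP and SREBP complex back when sterols are plentiful, and INSIG1 is itself an SREBP target.

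The sequences upstream of the members' start sites are shown because these genes are known for their shared control by SREBP and NF-Y. Of the 8 members, 6 had an entry in the RefSeq promoter table (build GRCh38.p14), which holds 300 bases around each annotated start, most of them upstream. The 200 bases before the most upstream annotated start are printed 5′ to 3′ on the strand of the gene. They are given for the 4 members with the highest log2 ratios and for INSIG1. Capitals mark each CCAAT box (CCAAT, or ATTGG where it lies on the other strand) and each match, with 1 mismatch, to the sterol regulatory element TCACNCCAC or its reverse complement. The regions are chr16:88663092-88663291 on the minus strand for MVD, chr12:109573594-109573793 on the plus strand for MVK, chr1:155308666-155308865 on the plus strand for FDPS, chr5:43313413-43313612 on the minus strand for HMGCS1 and chr7:155297678-155297877 on the plus strand for INSIG1.
MVD: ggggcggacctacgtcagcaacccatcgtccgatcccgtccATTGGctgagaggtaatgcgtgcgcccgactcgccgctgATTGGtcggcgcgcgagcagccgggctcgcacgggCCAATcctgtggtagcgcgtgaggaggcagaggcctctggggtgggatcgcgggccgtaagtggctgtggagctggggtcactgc
MVK: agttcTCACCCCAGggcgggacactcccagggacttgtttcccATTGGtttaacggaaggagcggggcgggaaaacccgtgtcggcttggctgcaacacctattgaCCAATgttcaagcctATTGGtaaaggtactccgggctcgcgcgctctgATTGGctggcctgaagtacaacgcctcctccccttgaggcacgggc
FDPS: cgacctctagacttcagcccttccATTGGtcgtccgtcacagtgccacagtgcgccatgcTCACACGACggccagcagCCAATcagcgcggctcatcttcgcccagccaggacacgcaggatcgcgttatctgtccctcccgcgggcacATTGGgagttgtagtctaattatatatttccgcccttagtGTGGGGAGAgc
HMGCS1: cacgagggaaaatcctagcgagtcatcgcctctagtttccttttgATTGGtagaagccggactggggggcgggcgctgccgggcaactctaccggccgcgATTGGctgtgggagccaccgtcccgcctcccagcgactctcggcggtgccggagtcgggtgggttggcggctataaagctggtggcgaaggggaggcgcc
INSIG1: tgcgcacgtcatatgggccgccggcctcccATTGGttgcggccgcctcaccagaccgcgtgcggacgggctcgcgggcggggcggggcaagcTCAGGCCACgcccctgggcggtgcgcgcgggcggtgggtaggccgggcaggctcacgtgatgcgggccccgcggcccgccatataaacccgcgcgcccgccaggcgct

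A CCAAT box on either strand was found in the 300-base windows of 6 of 6 members, against 39.7% of the 27305 genes in the table. At least 3 boxes were found in 4 of the 6 members, namely MVK with 5 and MVD, FDPS and IDI1 with 3, against 3.92% of all genes. A gene with several annotated starts was given its highest count. IDI1 had 0 boxes at its most upstream start and 2 and 3 at the others. Of 11 other sterol synthesis genes with an entry, 8 had a box and 3 had at least 3. HMGCS1 had 2 boxes and INSIG1 had 1. In the MVD sequence the boxes began 159, 120 and 85 bases before the start, and in HMGCS1 155 and 100 bases before it. An exact sterol regulatory element was found in 0 of the 6 members, against 1.39% of all genes, and an element with up to 1 mismatch in 4 of 6, against 28.2%. The MVK match, TCACCCCAG, began 195 bases before the start, and the INSIG1 match, TCAGGCCAC, began 108 bases before it. Among the SREBP pathway genes, SREBF2 carried an exact element 133 bases before its start. The element is printed in capitals with 10 bases on each side, and the printed stretch is chr22:41832962-41832990 on the plus strand.
SREBF2: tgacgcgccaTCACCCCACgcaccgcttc
The GC box GGGCGG was present in 6 of 6 members and in 48.3% of all genes. These matches describe letters in the windows and were not tied to binding in these cells.

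The estimated counts summed to 13699340 in the KD-labelled column and 11680567 in the CTRL-labelled column. The paper lists more mapped read pairs than this for each library, so the sums are not the sequencing depth. PCBP1 had an FPKM (fragments scaled to transcript length and to library size) of 184.1 in the KD-labelled column and 187.8 in the CTRL-labelled column. PCBP2 had 530.8 and 342.4. The mRNAs that the siRNAs target did not both have lower values under the KD label, and every direction below refers to the labels only. Of 12 erythroid marker genes, 6 were at 0 in both columns, and 1, the embryonic globin HBE1, exceeded an FPKM of 5 in both, with 152.9 in the KD-labelled column and 35.4 in the other. Of 6 epithelial keratin and adhesion markers, 3 exceeded 5 in both columns and 1 was at 0 in both, with KRT18 at 2309 and 1748. The part of this marker pattern in the values below was not tested, and in bulk RNA a smaller number of cells of a type and less RNA per cell cannot be told apart.

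In the first section of the pathway, 3 of 4 members had higher values in the KD-labelled column. MVD, the mevalonate diphosphate decarboxylase (ENSG00000167508; GRCh37 chromosome 16, 88718343 to 88729569, minus strand), had an FPKM of 45.4 under the KD label and 16.2 under the CTRL label, 2.81-fold. The log2 ratio of FPKM, computed here with 1 added to each value, was 1.43 and was above those of 96.6% of the 13741 genes whose mean FPKM was 1 or more. MVD was the only member at or beyond a log2 ratio of 1, the fold used here to call a gene, and it was the lowest of the 8 in the CTRL-labelled column.

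MVK, mevalonate kinase (ENSG00000110921; chromosome 12, 110011060 to 110035930, plus strand), stood at 31.0 and 17.3 FPKM in the KD- and CTRL-labelled columns. Its log2 ratio was 0.81, beyond that of 87.2% of the genes. MVK has its start region in common with MMAB, a cobalamin enzyme gene on the other strand, which was examined after the values were seen and had FPKM of 77.2 and 48.2 and a log2 ratio of 0.67. HMGCS1, the cytosolic HMG-CoA synthase (ENSG00000112972; chromosome 5, 43287572 to 43313614, minus strand), measured 146.0 and 93.4 FPKM, a log2 ratio of 0.64. IDI1, which isomerises isopentenyl diphosphate (ENSG00000067064; chromosome 10, 1085092 to 1095059, minus strand), did not follow them, with 92.4 and 96.3 FPKM and a log2 ratio of -0.06.

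IDI2, the paralog of IDI1, gave little signal, with 0 counts in the KD-labelled column and 1 in the CTRL-labelled column. The isomerase signal therefore came almost wholly from IDI1 as the table assigns reads.

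FDPS, farnesyl diphosphate synthase, was the most abundant member in both columns. FDPS (ENSG00000160752; chromosome 1, 155278539 to 155290457, plus strand) had an FPKM of 740.3 in the KD-labelled column and 427.5 in the CTRL-labelled column, a log2 ratio of 0.79. It made up 51.5% of the summed FPKM of the 8 genes in the first column and 42.4% in the second. FDPS feeds both the sterol route and the isoprenoid branch.

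The enzymes that lead from farnesyl diphosphate towards sterols differed much less. FDFT1, squalene synthase (ENSG00000079459; chromosome 8, 11653082 to 11696904, plus strand), had 269.3 and 243.1 FPKM, a log2 ratio of 0.15. SQLE, squalene epoxidase (ENSG00000104549; chromosome 8, 126010739 to 126034525, plus strand), had 71.3 and 65.3, a log2 ratio of 0.13. Both ratios lay among the middle of the genes, above 58.6% and 57.2% of them.

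INSIG1, the feedback protein, had the lowest log2 ratio of the 8. INSIG1 (ENSG00000186480; chromosome 7, 155089486 to 155101945, plus strand) had 43.1 FPKM in the KD-labelled column and 48.2 in the CTRL-labelled column, a log2 ratio of -0.16. Its paralog INSIG2 was also lower, with 9.31 and 12.3 FPKM and a log2 ratio of -0.37. The ratio of INSIG1 to INSIG2 was 4.63 and 3.91 in the KD- and CTRL-labelled columns.

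**Figure D1:**
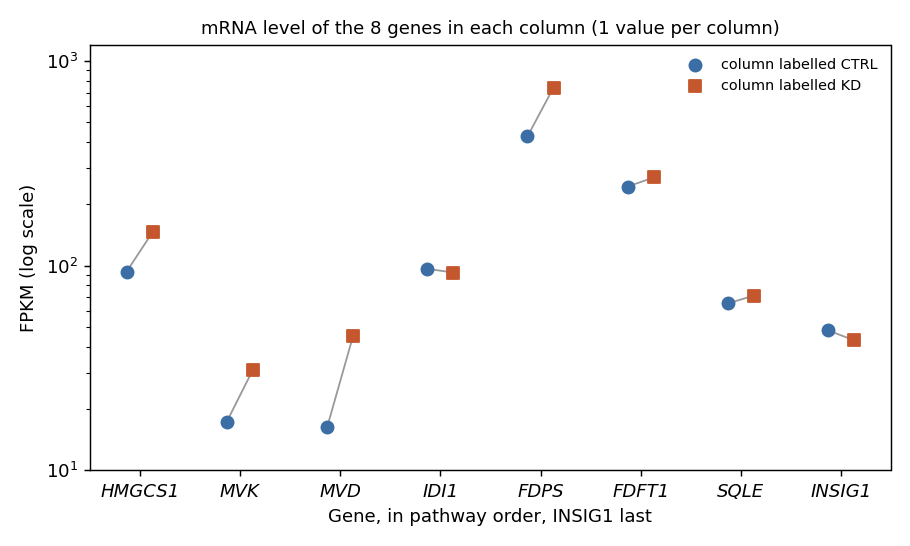
FPKM of the 8 genes on a log axis, with the CTRL-labelled column as circles, the KD-labelled column as squares and a line joining the values of a gene, 1 value per column. MVD and MVK start as the lowest genes in the CTRL-labelled column and have the steepest lines, from 16.2 to 45.4 and from 17.3 to 31.0, while IDI1 and INSIG1 slope downward.

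The order of the 8 levels was similar in both columns at the top and differed at the bottom. FPKM per gene ran FDPS, FDFT1, HMGCS1, IDI1, SQLE, MVD, INSIG1 and MVK from highest to lowest in the KD-labelled column. In the CTRL-labelled column the order was FDPS, FDFT1, IDI1, HMGCS1, SQLE, INSIG1, MVK and MVD. The highest level was 23.9 times the lowest in the KD-labelled column and 26.4 times in the CTRL-labelled column, so the genes of the pathway differed among themselves far more than between columns. MVD stood at 1.47 times MVK in the KD-labelled column and at 0.936 times in the CTRL-labelled column. FDPS stood at 8.01 times IDI1 in the KD-labelled column and 4.44 times in the other, and at 5.07 and 4.57 times HMGCS1. Whether neighbours in these orders differ beyond the spread between cultures could not be assessed from 1 value per column.

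Across the set, 6 of the 8 members had a log2 ratio above 0, where 51.1% of the 13741 genes did. A log2 ratio of 1 or more was reached by 1 of 8 members and by 8.51% of all genes, and a ratio of -1 or less by 0 of 8 and by 3.27%. The median log2 ratio of the members was 0.39, beside 0.01 for all genes. The 8 were chosen with these results known, and the counts describe the columns without a test.

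Divided by the column totals, the estimated counts of the same table gave lower log2 ratios than FPKM for every member. As shares of the column totals, with 1 count added, MVD had 866 counts in the KD-labelled column and 292 in the CTRL-labelled column. Its log2 ratio was 1.34 with a 95% exact binomial interval of 1.15 to 1.53. Such an interval would cover counting error alone if the estimated counts were raw counts, which is not established. It covers no spread between cultures. FDPS had 5750 and 3281 counts, a log2 ratio of shares of 0.58 (0.52 to 0.64). MVK had 699 and 391 counts and a ratio of 0.61 (0.43 to 0.79), and HMGCS1 had 4772 and 3392 and 0.26 (0.20 to 0.33). These 4 intervals lay above 0.

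The other 4 members had log2 ratios of count shares below 0. SQLE had 1802 and 1639 counts and a log2 ratio of shares of -0.09, with an interval from -0.19 to 0.00. FDFT1 had 5603 and 5568 counts and -0.22 (-0.27 to -0.17). IDI1 had 2383 and 2486 counts and -0.29 (-0.37 to -0.21), and INSIG1 had 1475 and 1545 and -0.30 (-0.40 to -0.19). FDFT1 and SQLE thus changed sign between FPKM and count shares. Of the 28 pairs of members, 5 had overlapping intervals, MVK with FDPS, SQLE with FDFT1, and FDFT1, IDI1 and INSIG1 with each other.

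The shift between the scales was shared by most genes. The log2 ratio of FPKM exceeded that of count shares, both taken without an added constant, by a median of 0.23 over 13626 genes, with 5% of genes below -0.12 and 5% above 0.58, and the gap was 0.38 for HMGCS1, 0.37 for FDFT1 and 0.14 to 0.23 for the other 6. The median over all genes was 0.01 for FPKM and -0.21 for count shares, and the members' median fell from 0.39 to 0.08. On count shares 1 of 8 members reached a log2 ratio of 1, where 6.69% of all genes did, and 0 of 8 reached -1, where 9.65% did. Relative to the median of all genes, 6 members were higher for FPKM and 5 for count shares.

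Base composition moved with the ratios. Over 13298 genes with an annotated transcript, the log2 ratio of FPKM rose with GC content of the longest transcript, with a Spearman rho across genes, which are not independent replicates, of 0.445. Across 4 groups of like size, from the lowest to the highest GC content, the median log2 ratio was -0.24, -0.13, 0.09 and 0.47, and the share of genes at a log2 ratio of 1 or more was 1.62%, 3.85%, 7.46% and 20.7%. The members followed the same order with a rho of 0.738 (n = 8, all read from the same columns). MVD at 63.7% GC, MVK at 58.2% and FDPS at 56.0% lay in the highest group and had the 3 highest ratios of the set. INSIG1, SQLE and FDFT1, at 44.8% to 47.0%, lay in the second lowest group. HMGCS1 at 39.0% and IDI1 at 41.1% lay in the lowest, so that HMGCS1 stood well above the median of its group.

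**Figure D2:**
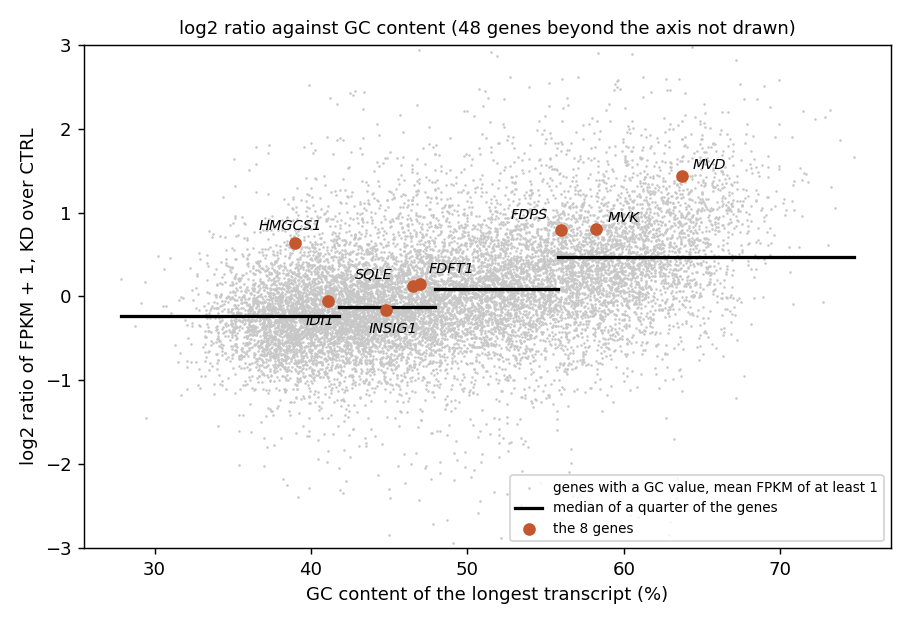
The log2 ratio of FPKM (KD over CTRL label) against the GC content of the longest transcript in percent, for 13298 genes that passed the FPKM filter and have a GC value (grey, 48 of them beyond the axis and not drawn), the median of each of 4 GC groups (black bars, from -0.24 to 0.47) and the 8 genes (orange). MVD, MVK and FDPS lie above the bar of the highest GC group, and HMGCS1 is a high point among genes of low GC content.

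When the ratios of FPKM were freed of a quadratic trend over all genes with the GC content and the log2 length of the transcript, the order of the members changed. HMGCS1 became the highest at 0.85, above 93.2% of the genes, and MVD followed at 0.74, above 91.3%. FDPS was at 0.48, MVK at 0.42, FDFT1 and SQLE at 0.15, IDI1 at 0.09 and INSIG1 at -0.09. At this setting 0 of 8 members reached a log2 ratio of 1, where 4.86% of the genes did, the members' median was 0.29 beside -0.03 for all genes, and 7 of 8 lay above that median. With the trend removed from count shares, a setting added after the values were seen, 0 of 8 reached 1, where 3.42% of the genes did. The highest members were then MVD at 0.51 and HMGCS1 at 0.50. The members' median was 0.05 beside -0.27 for all genes, with 8 of 8 above it. HMGCS1, MVK, MVD and FDPS were above 0 on each of the 4 scales and INSIG1 was below 0 on each, while IDI1, FDFT1 and SQLE changed sign between scales.

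Some exons of the members overlap genes on the other strand, and the library kit does not mark strand, so reads of the overlaps cannot be assigned with certainty. The largest overlap was in HMGCS1, where 2497 exon bases, 37.7% of its merged exons, lie within the exons of the long noncoding RNA gene ENSG00000261604. That gene had an FPKM of 0.962 in the KD-labelled column and 5.80 in the CTRL-labelled column, opposite in direction to HMGCS1 and far below its level. FDPS shares 18.6% of its exon bases with RUSC1-AS1, at 16.1 and 16.8 FPKM, and IDI1 shares 15.0% with IDI2-AS1, at 0.462 and 0. The overlaps of FDFT1 and MVK were 4.27% and 2.50%, and MVD, SQLE and INSIG1 had none.

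All 14 other genes of the route, enzymes except for C14orf1, a scaffold of sterol demethylation, passed the filter on mean FPKM. Their median log2 ratio was 0.38 for FPKM, 0.17 for count shares, 0.27 with the trend removed and 0.011 with the trend removed from shares, beside 0.01, -0.21, -0.03 and -0.27 for all genes. The sterol isomerase EBP was the only one of the 14 called from FPKM, where 8.51% of all genes were called higher. It had 463.7 FPKM in the KD-labelled column and 191.1 in the CTRL-labelled column. Its log2 ratio was 1.27, which was 0.94 for count shares and 1.03 with the trend removed. The lowest was LBR, the lamin B receptor with sterol reductase activity, at 23.4 and 31.9 FPKM and -0.43. PMVK, which phosphorylates mevalonate phosphate between the steps of MVK and MVD, had 38.1 and 21.8 FPKM and a log2 ratio of 0.78. Its ratio was 0.58 for count shares, 0.32 with the trend removed and 0.021 with the trend removed from shares. LSS, which follows SQLE, had -0.15 for FPKM. No gene of the 14 reached -1 for FPKM, where 3.27% of all genes did. Above 0 were 10 of 14 for FPKM, where 51.1% of all genes were, and 8 of 14 for count shares.

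**Figure D3:**
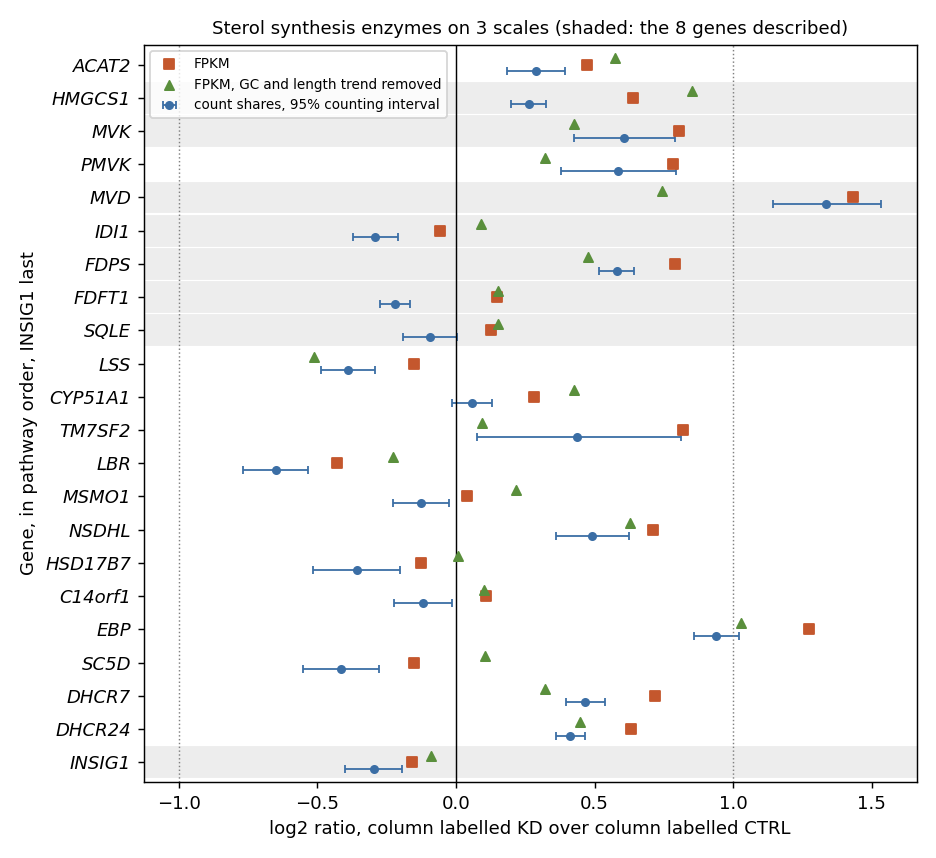
Log2 ratios (KD over CTRL label) of 21 sterol synthesis genes in pathway order and INSIG1. They come from FPKM (squares), from FPKM freed of the GC and length trend (triangles) and from count shares (circles). Bars on the circles are the 95% exact binomial interval of the estimated counts. Shaded rows are the 8 genes described, and MVD at 1.43 and EBP at 1.27 are the squares beyond the dotted line at 1.

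Among 6 regulators above the enzymes, the highest ratios belonged to the transcription factor genes. SREBF1, the SREBP of lipid synthesis, had 33.0 and 15.2 FPKM in the KD- and CTRL-labelled columns, a log2 ratio of 1.07, which was 1.13 for count shares and 0.45 with the trend removed. SREBF2, the main SREBP of sterol synthesis, had 58.2 and 32.4 FPKM and 0.83. SCAP, the escort protein, was at 0.34, the proteases MBTPS1 and MBTPS2 at 0.12 and -0.10, and INSIG2 was lowest. Of the 6 regulators 1 was called higher from FPKM, where 8.51% of all genes were, and 0 lower, where 3.27% were. Their median turned direction with the scale, at 0.23 for FPKM, -0.04 for count shares, 0.08 with the trend removed and -0.20 with the trend removed from shares.

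None of 6 genes of lipoprotein uptake and sterol trafficking was called from FPKM, where 8.51% of all genes were called higher and 3.27% lower. Their median was -0.09. They ranged from STARD4, a sterol transfer protein, at 5.19 and 8.27 FPKM and -0.58, to NPC1, the lysosomal sterol exporter, at 0.07. Of 10 genes of the isoprenoid branch that draws on farnesyl diphosphate, 0 were called, beside the same shares of all genes. Their median was -0.20, from PDSS1 of coenzyme Q synthesis at -0.65 to COQ2 at 0.43. For count shares the medians were -0.38 for uptake and trafficking and -0.40 for the isoprenoid branch, beside -0.21 for all genes. With the trend removed they were -0.07 and -0.17, beside -0.03, and with the trend removed from shares -0.45 and -0.42, beside -0.27.

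**Figure D4:**
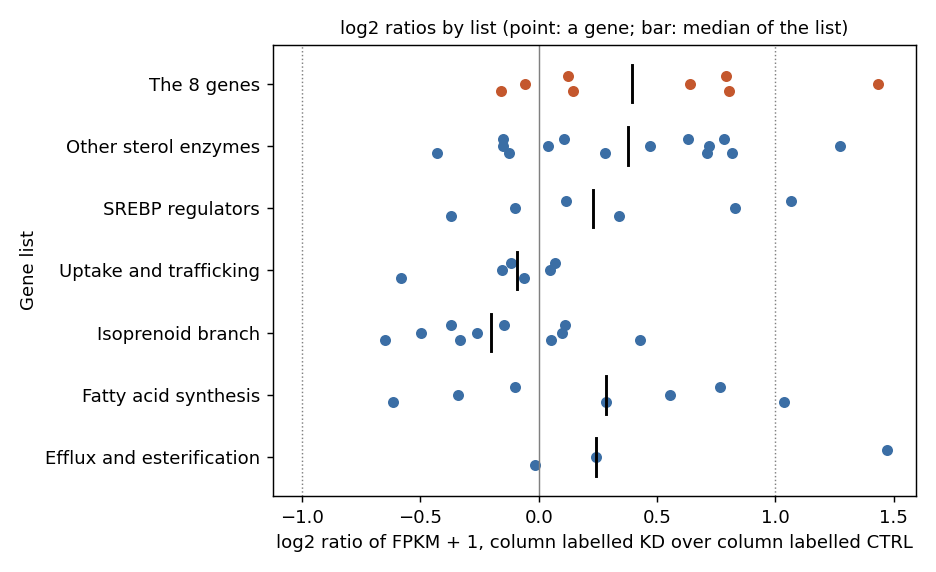
Log2 ratios of FPKM (KD over CTRL label) for the 8 genes and 6 related lists, each point a gene and each bar the median of its list, with dotted lines at -1 and 1. The medians run from -0.20 for the isoprenoid branch to 0.39 for the 8 genes, and only single genes pass the line at 1.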

How the data were processed

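Libraries of K562 cells were made with TruSeq kit V1, which does not mark strand, and sequenced as paired ends. The authors mapped reads with TopHat 1.4.1 to hg19 and computed FPKM with Cuffdiff 2.2.0. The deposited table gives 1 FPKM and 1 estimated count per gene and group, and the way in which 3 libraries became 1 value is not given in the sources used here. The authors' columns for their own comparison (fold, p-value, FDR) were not used. Here log2 ratios were taken from FPKM after adding 1 to each value, for genes whose mean FPKM was 1 or more, and estimated counts were divided by the column totals. The linear models planned across libraries were impossible with a single value for each group. GC content and transcript length came from GENCODE on GRCh37, exact binomial intervals from scipy 1.17.1 (Python 3.11.15, numpy 2.4.6, pandas 2.3.3, matplotlib 3.10.9). The functions were tested on simulated data. The members, the related lists and their markers were chosen with earlier results of these data known. The genes named are the members, the targeted genes and, of each list, those past the fold or at its ends. MMAB, the exon overlaps, ELOVL6 and the genes given as further examples were singled out after their values were seen. A gene of the related lists is not reported here.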

Additional observations from a re-analysis of the deposited data

How the results depend on the processing

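No paired analysis was possible because each group has a single value per gene, and leaving out each replicate in turn was not run for the same reason. No log2 ratio past the fold changed sign among 177 values of 25 results under the alternatives. Of the ratios followed, only that of MVD was past the fold, so no other value could be labelled as reversed. The call of MVD was lost with the trend removed, at 0.74 from FPKM and 0.51 from count shares. Of the 177 values, 60 were identical to the main value, including some that the setting could not change. Each member has 1 row to sum, and a filter does not alter a gene's own ratio. Within the binomial interval of a gene, or within 1.5 times a count, 123 values stayed, and 54 did not. The causes of these 54 moves were not tested, apart from the smaller numbers of genes under the stricter filter. With counts divided by column totals, the log2 ratios were 0.58 for FDPS, 0.26 for HMGCS1, 0.61 for MVK, -0.093 for SQLE, -0.22 for FDFT1, -0.29 for IDI1, -0.30 for INSIG1, -0.25 for PCBP1 and 0.37 for PCBP2. The members' median was 0.0845, and 1326 of all genes were lower past the fold against 450 for FPKM. The related lists had 2 genes higher and 3 lower, where 6.69% and 9.65% of all genes were. For FPKM they had 4 and 0, where 8.51% and 3.27% of all genes were. Once the GC and length trend was removed, the ratios were 0.48 for FDPS, 0.85 for HMGCS1, 0.090 for IDI1, 0.74 for MVD, 0.42 for MVK and -0.30 for PCBP1, and the members' median was 0.29. Past the fold and higher were then 0 members, 646 of all genes (4.86%) against 1169 (8.51%), and 1 gene of the related lists. With the trend removed from count shares, added after the data were seen, the ratios were 0.21 for FDPS, 0.50 for HMGCS1, 0.51 for MVD, 0.16 for MVK, -0.21 for FDFT1, -0.055 for SQLE, -0.58 for PCBP1 and 0.34 for PCBP2. The members' median was 0.054. Higher past the fold were 0 members, 0 genes of the related lists and 455 of all 13298 genes (3.42%). Lower past the fold were 4 genes of the related lists and 1357 of all genes. An FPKM over 5 in at least 1 column left 292 genes lower, and a pseudocount of 0.1 gave 791. Allowing 1 mismatch moved the members with a sterol regulatory element from 0 to 4. Among the members, MVD and MVK had the fewest estimated counts, with 292 and 391 in the CTRL-labelled column.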

Other observations

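Fatty acid synthesis, the other arm of SREBP control, gave values that depended on the unit. Of 7 genes, 1 was called higher from FPKM, where 8.51% of all genes were, and 0 lower, where 3.27% were. The called gene was the fatty acid synthase FASN, with 231.0 under the KD label and 112.1 under the CTRL label. Its log2 ratio was 1.04, which was 0.32 for count shares. The fatty acid elongase ELOVL6 had FPKM of 8.79 and 4.75, a log2 ratio of 0.77, but 71 and 218 counts, a log2 ratio of shares of -1.83. The desaturase FADS1 was lowest for FPKM at -0.61, and was at -0.96 for count shares. The median of the list was 0.28 for FPKM and -0.33 for count shares.

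Of 5 genes of sterol efflux and esterification, 3 had a mean FPKM of 1 or more. NR1H2, a liver X receptor that senses oxysterols, had 31.5 and 10.7 FPKM, a log2 ratio of 1.47, which was 1.43 for count shares and 0.95 with the trend removed. The efflux transporter ABCA1 had 2 and 3 counts, too few for a ratio. In the isoprenoid branch the farnesyltransferase subunit FNTB had 2.00 and 1.78 FPKM but 28 and 59 counts, a log2 ratio of shares of -1.31, and PDSS1 had -1.23 on the same scale. These were the 2 of 10 genes of the branch at -1 or less for count shares, where 9.65% of all genes were.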
